A study of Mus musculus with 118 samples.

Results

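The genes described here encode pore-forming subunits of the channels that give neurons a voltage sag and a low-threshold spike. They are 3 genes of hyperpolarization-activated cyclic nucleotide-gated (HCN) channels, *Hcn2*, *Hcn3* and *Hcn4*, and the 3 genes of T-type calcium channels, *Cacna1g*, *Cacna1h* and *Cacna1i*. They were chosen by name, for their part in sag and low-threshold spiking, and are 6 of the 23998 gene symbols in the table. Each symbol had a single entry. The data are Patch-seq profiles: a neuron in an acute slice was recorded through a patch pipette, its contents were then drawn into the pipette, and the RNA was sequenced with a Smart-seq2-based protocol. The mice were adult males and females of a SOM-Cre/Ai9 cross, in which Cre driven by the somatostatin gene switches on the red protein tdTomato, so that a cell is labeled if it expresses somatostatin or once did. All sequenced cells came from this cross, with no treatment, and they fall into 4 groups, layer 4 (L4) and layer 5 (L5) of primary visual cortex (V1) and of primary somatosensory cortex (S1).

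An HCN channel opens when a cell is hyperpolarized, carries a depolarizing inward current of sodium and potassium, and opens more readily when cyclic AMP binds to it. In a recording, this current pulls the voltage back during a hyperpolarizing pulse, which is the sag. T-type channels open close to the resting potential, but only after hyperpolarization has freed them from inactivation, and the calcium that then enters gives a low-threshold spike with a burst or rebound of action potentials on top. Somatostatin-positive (SOM+) interneurons of the cortex are known for both features, and some of them have been called low-threshold spiking cells. In the HCN family, HCN4 is the slow form that carries pacemaker current in the sinoatrial node, HCN2 is widely expressed in brain and strongly moved by cyclic AMP, and HCN3 responds little to it. *Cacna1g*, *Cacna1h* and *Cacna1i* encode Cav3.1, Cav3.2 and Cav3.3, of which Cav3.3 is the slowest to activate and inactivate.

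The cells kept for the comparisons were, in L4, 42 of 44 from V1 and 34 of 39 from S1, and in L5, 17 of 19 from V1 and 16 of 16 from S1. A kept cell had at least 1500 detected genes, no more reads of *Slc17a7* (the vesicular glutamate transporter of cortical excitatory neurons) than of *Gad1* and *Gad2* (the GABA-synthesizing enzymes) together, and a read of *Sst*. Kept cells had 97904 to 3295232 reads on genes, with group medians of 1015273 to 1199869. No label ties a cell to an animal, so each area and layer counts as 1 sample and no difference between groups was tested. In place of a test, differences were read against the spread over the 9 recording dates, numbered as days 1 to 9 and grouped by the gap between them into a first series (days 1 to 6) and a second (days 7 to 9). All L5 cells were recorded in the first series. Because days may share animals, this spread is not one over animals.

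The SOM+ label was checked against markers, with *Gad1* read in all kept cells and *Lhx6* (a transcription factor of interneurons from the medial ganglionic eminence) in 88. Reads of other cell types were present as well. *Mbp*, a myelin gene, was read in 31 of 42 V1 L4 cells, 26 of 34 S1 L4 cells, 13 of 17 V1 L5 cells and 15 of 16 S1 L5 cells. The list of 5 oligodendrocyte genes had a pooled level of 240 in V1 L4 and 218 in V1 L5, against 1088 in S1 L4 and 696 in S1 L5, in counts scaled to 1e6 reads (CPM). *Pvalb*, a marker of fast-spiking interneurons, was read in 10 of 42 V1 L4, 18 of 34 S1 L4, 1 of 17 V1 L5 and 7 of 16 S1 L5 cells. The other genes of its list, *Tac1* and *Syt2*, were read in 2 and 1 kept cells, and in 0 of S1 L4. *Pvalb* reads alone thus do not show fast-spiking cells.

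*Cacna1g* (chromosome 11, 94408391 to 94474198, minus strand; coordinates on GRCm38 throughout) was read in more cells than any other member. It was read in 82 kept cells (75.2% of them, 95% Clopper-Pearson interval 66.0 to 83.0). *Hcn3* (chromosome 3, 89146074 to 89160196, minus strand) followed with 47 cells (43.1%, 33.7 to 53.0). *Hcn2* (chromosome 10, 79716634 to 79736108, plus strand) was read in 38 cells (34.9%, 26 to 44.6) and *Cacna1i* (chromosome 15, 80287238 to 80398279, plus strand) in 35 (32.1%, 23.5 to 41.7). The last pair was sparse. *Cacna1h* (chromosome 17, 25374285 to 25433783, minus strand) was read in 10 cells (9.17%, 4.49 to 16.2), and *Hcn4* (chromosome 9, 58823412 to 58863175, plus strand) in 3 (2.75%, 0.571 to 7.83). These intervals, like all intervals given here, cover counting error over cells only. After each cell was thinned to 250000 reads, leaving out shallower cells, the same order of shares held except that *Hcn2* and *Cacna1i* were equal, at 29 cells each, with 78 for *Cacna1g*, 39 for *Hcn3*, 6 for *Cacna1h* and 3 for *Hcn4*.

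**Figure D1:**
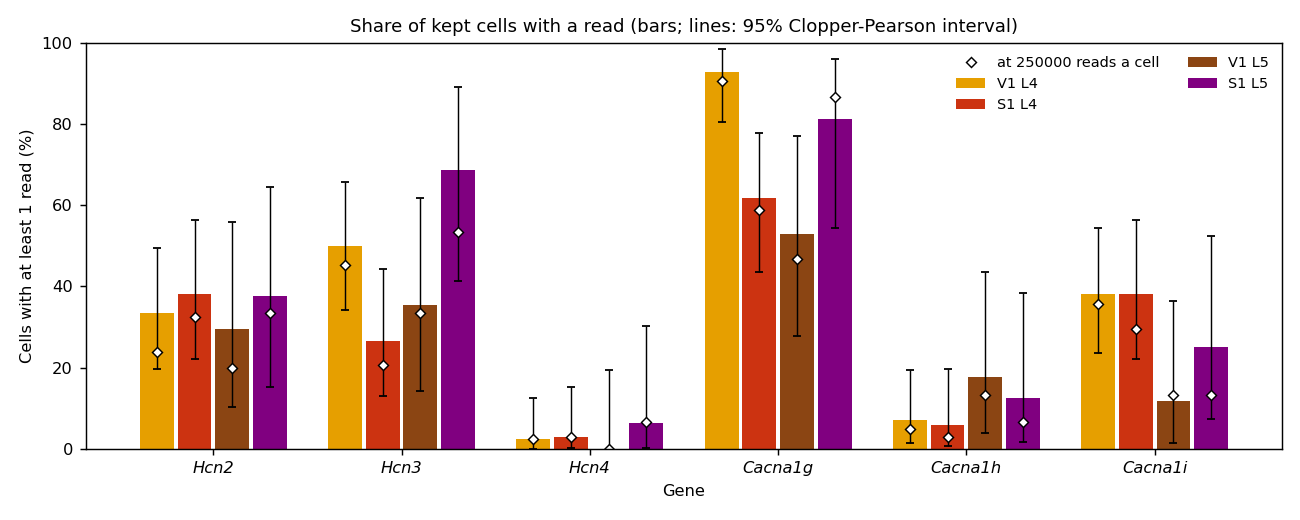
Share of kept cells with at least 1 read (vertical axis, percent) for each channel gene (horizontal axis) in each area and layer (42, 34, 17 and 16 cells in the order of the legend); black lines are 95% Clopper-Pearson intervals and open diamonds are the shares at 250000 reads a cell. The bars for *Cacna1g* range from 52.9% in V1 L5 to 92.9% in V1 L4, and those for *Hcn4* stay at or below 6.25%.

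Detection went with depth for some members. Cells with a *Hcn2* read had a median of 1517747 reads against 969686 in cells without one, and for *Hcn3* the medians were 1478342 and 1002744. *Cacna1h* showed the widest gap, 2007956 against 1079183. For *Cacna1g* the order was the other way, 1060118 reads in cells with it and 1265436 in cells without.

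Levels of different genes can be set side by side only per transcript length, and for that the deposited RPKM values (reads scaled to transcript length and to sequencing depth) were used. Over all kept cells the mean log2(RPKM + 1) was 2.39 for *Cacna1g* (SD 1.96 over cells), 1.69 for *Hcn3* (SD 2.36), 0.91 for *Hcn2* (SD 1.65), 0.71 for *Cacna1i* (SD 1.33), 0.14 for *Cacna1h* (SD 0.57) and 0.04 for *Hcn4* (SD 0.25). Between each pair of neighbors in this order the gap was smaller than the SD over cells of the higher one. The order was the same in V1 L4, S1 L4 and V1 L5. In S1 L5 *Hcn3*, at 2.59 (SD 2.65), stood above *Cacna1g*, at 2.33 (SD 1.48). Counts pooled over all cells and divided by length also put *Hcn3* first, at 11.6 against 9.31 for *Cacna1g*. *Hcn3* was thus read in fewer cells than *Cacna1g*, with more of its reads per length in single cells: its highest cell had 192 RPKM and that of *Cacna1g* 108.4.

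**Figure D2:**
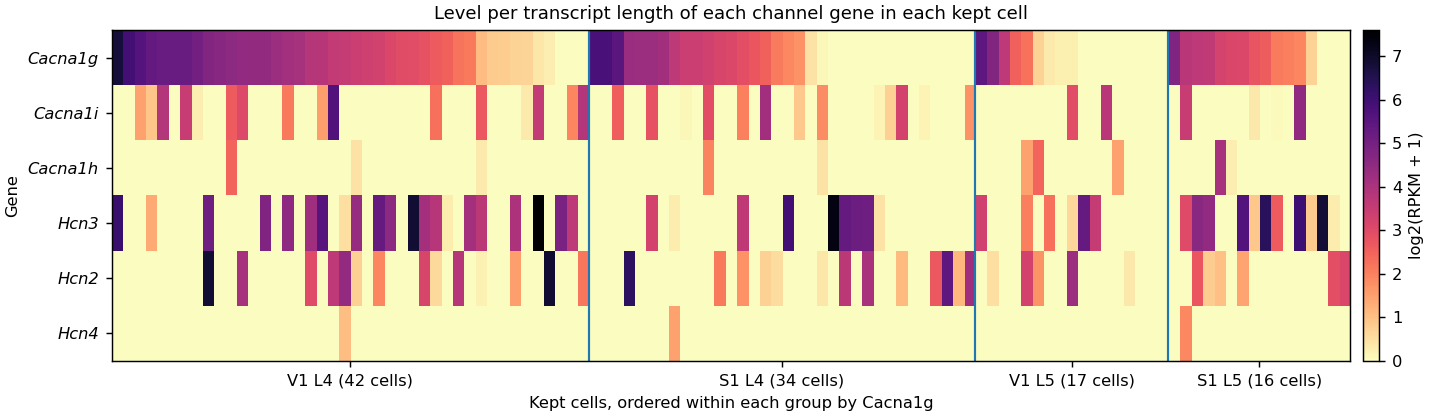
Level per transcript length, as log2(RPKM + 1) on the color scale, of the 3 T-type genes (upper rows) and the 3 HCN genes (lower rows) in each kept cell (columns), grouped by area and layer and ordered within a group from high to low *Cacna1g*. *Cacna1g* is read in 39 of 42 V1 L4 columns, while reads of the other genes are scattered over cells with and without it.

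*Cacna1g* had its highest share of cells with a read in V1 L4 and its lowest in V1 L5. In V1 L4 it was read in 39 of 42 cells (92.9%, 80.5 to 98.5), with a lowest value of 0, a median of 78.9 and a highest of 1039 CPM. In S1 L4 21 of 34 cells had a read (61.8%, 43.6 to 77.8), and the median was 25.2 and the highest cell 449 CPM. In V1 L5 9 of 17 cells had a read (52.9%, 27.8 to 77), with a median of 1.27 and a highest of 357 CPM. S1 L5 had 13 of 16 (81.2%, 54.4 to 96.0), a median of 42.4 and a highest of 222 CPM. Every group held cells at 0 and cells at 222 CPM or more, so the single cells of the 4 groups overlapped. The pooled level was 108.8 CPM in V1 L4 (95% Poisson interval 106.01 to 111.6) and lower in the other 3 groups, at 52.6 CPM for S1 L4, 52.6 CPM for V1 L5 and 49.5 CPM for S1 L5. The pooled value of V1 L5 rested on 1 cell with 65.0% of its *Cacna1g* counts, and without that cell it was 20.4 CPM.

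*Hcn3* was read in 21 of 42 V1 L4 cells (50.0%, 34.2 to 65.8), 9 of 34 S1 L4 cells (26.5%, 12.9 to 44.4), 6 of 17 V1 L5 cells (35.3%, 14.2 to 61.7) and 11 of 16 S1 L5 cells (68.8%, 41.3 to 89.0). The median was 0.338 CPM for V1 L4 and 9.70 for S1 L5, and 0 for both other groups. The highest cells were at 644 CPM in V1 L4, 543 in S1 L4, 126.6 for L5 of V1 and 374 for L5 of S1. Each group thus held a part of cells without a read and a part with high values, and all groups overlapped. *Hcn3* shares 711 exonic bases with *Pklr*, the gene of liver and red cell pyruvate kinase, and the reads carry no strand. *Pklr* was counted with 22 reads in 4 cells.

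*Hcn2* and *Cacna1i* were read in a minority of cells of every group, and the median was 0 CPM throughout. *Hcn2* was read in 14 of 42 V1 L4 (33.3%), 13 of 34 S1 L4 (38.2%), 5 of 17 V1 L5 (29.4%) and 6 of 16 S1 L5 cells (37.5%), and its highest cells were at 338, 231, 56.6 and 24.6 CPM. *Cacna1i* was read in 16 of 42 V1 L4 (38.1%), 13 of 34 S1 L4 (38.2%), 2 of 17 V1 L5 (11.8%) and 4 of 16 S1 L5 cells (25%), with highest cells at 443, 158.9, 122.3 and 194 CPM. The 95% intervals of all 4 groups overlapped for both genes. The share of *Cacna1i* in V1 L5, for instance, had an interval of 1.46 to 36.4%, and that of V1 L4 one of 23.6 to 54.4%.

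*Hcn4* was counted in a single cell of V1 L4 (3 reads), a single cell of S1 L4 (20 reads) and a single cell of S1 L5 (13 reads). It was read in 0 of 17 V1 L5 cells, which allows a share of up to 17.6%. All 3 cells with *Hcn4* also had *Hcn3* and *Cacna1g* reads. *Cacna1h* was counted in 3 of 42 V1 L4 cells (4, 21 and 7 reads), 2 of 34 S1 L4 cells (18 and 9 reads), 3 of 17 V1 L5 cells (31, 2 and 64 reads) and 2 of 16 S1 L5 cells (4 and 81 reads). Of the 10 cells with *Cacna1h*, 9 also had *Cacna1g*. Neither gene had enough reads to be compared between groups. *Cacna1h* shares exonic bases with *Tpsg1*, a mast cell tryptase gene that had 0 counts in the kept cells.

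**Figure D3:**
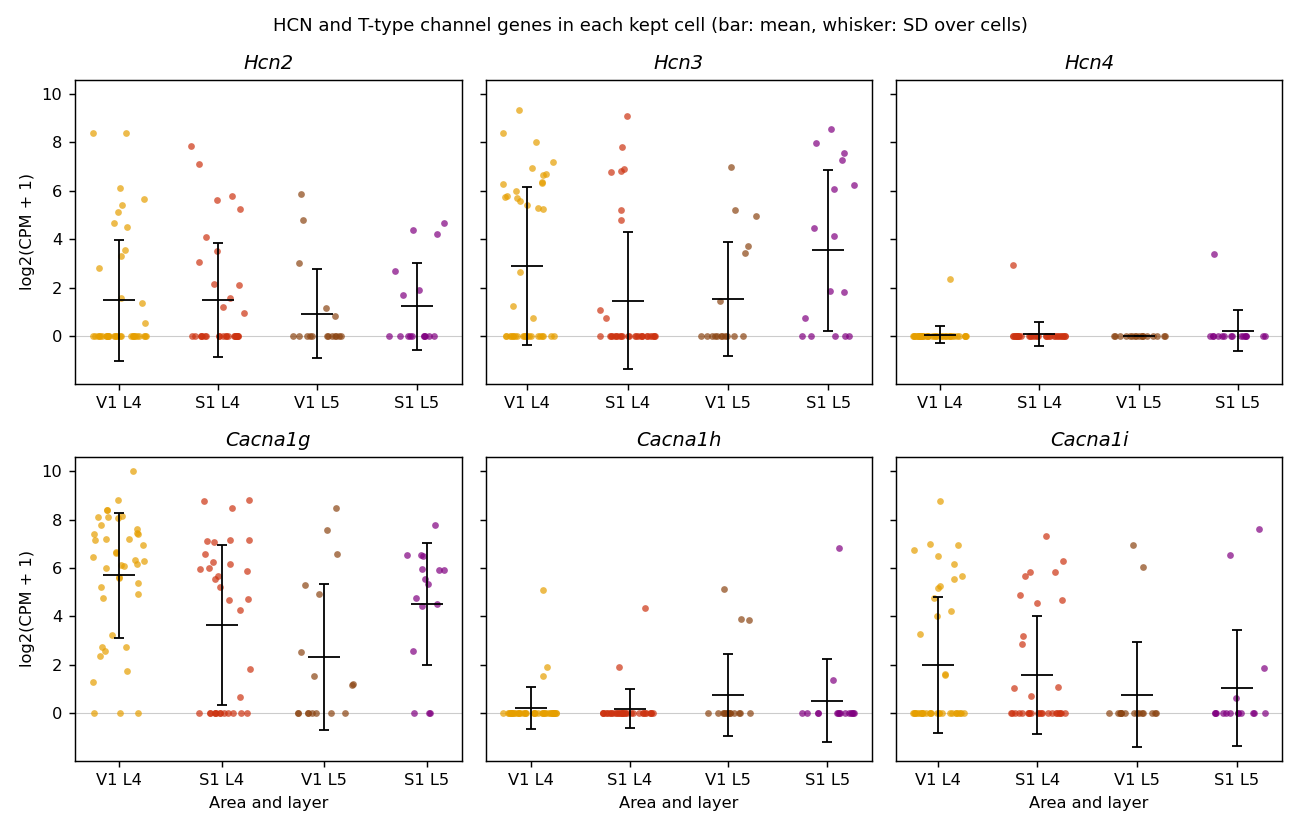
Log2(CPM + 1) (vertical axis) of each channel gene in every kept cell (points) by area and layer (horizontal axis); the black bar is the mean over cells and the whisker its SD. For the genes other than *Cacna1g* and *Hcn3* most cells of each group sit at 0, and the means of *Cacna1g* are 5.70, 3.65, 2.31 and 4.52 from left to right.

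To compare areas and layers, the difference in mean log2(CPM + 1) over kept cells was set beside its SD over the recording days that had at least 2 kept cells of each group. Cells of the other days thus entered the difference but not its SD. A gene was taken to pass when it had at least 32 reads in at least 10 of the cells compared, and its difference was said to meet the rule when it was at least 1 and larger than its SD over days. This is a description of size and spread and not a test. The background is the percent of all genes that passed the filter on reads and met the rule in the same comparison.

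In L4, *Hcn3* and *Cacna1g* had lower means in S1 than in V1, and *Hcn2* and *Cacna1i* differed little. Of the 4 members with enough reads, *Hcn3* met the rule, against a background of 3.9% of 9201 genes in either direction and 1.86% lower in S1. The mean of *Hcn3* was 1.45 in S1 and 2.89 in V1, a difference of -1.45 with an SD of 1.37 over 5 days, and it was lower in S1 on 4 of them, while 6.76% of genes had one sign on every day. The rule was met by little: without day 4 the difference was -1.24, without day 5 -1.43 and without day 9 -1.33, and each was then below its SD over days. As the mean of the differences within days, the value for *Hcn3* was -1.03, which did not meet the rule. *Cacna1g* had the larger difference, from 5.70 in V1 to 3.65 in S1 (-2.04), lower in S1 on 4 of 5 days, but its SD over days of 2.88 was larger. Without day 3 the difference was -2.39 with an SD of 2.32, which met the rule. *Hcn2* differed by 0.01 (SD 1.63 over days) and *Cacna1i* by -0.40 (SD 1.48), while the median difference of all genes was 0.01.

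The area difference of *Cacna1g* in L4 was unlike in the first and second recording series. In the first, 20 of 21 V1 cells and 13 of 16 S1 cells had a read, with means of 6.14 and 5.33, a difference of -0.81 (SD 1.73 over days) that did not meet the rule. In the second, 19 of 21 V1 cells and 8 of 18 S1 cells had a read, with means of 5.25 and 2.16, a difference of -3.09 (SD 1.99), which met it. In the second series alone 1316 of 7337 genes met the rule and in the first alone 780 of 6760, against 359 of 9201 over both series. The SD of the second series rests on days 7 and 8 only. The S1 cells differed more between series than the V1 cells, and on day 8 neither of 2 S1 cells had a *Cacna1g* read while 8 of 9 V1 cells had one. *Cacna1i* differed by 0.64 (SD 1.19) in the first series and by -1.42 (SD 0.92) in the second, where it met the rule, and *Hcn2* by -0.78 and 0.70. *Hcn3* met the rule in both, with differences of -1.51 (SD 1.02) and -1.39 (SD 1.24). In the second series, however, its differences within days 7 and 8 went opposite ways, -0.83 and 0.93. The 7 S1 cells of day 9, a day without V1 cells, entered the difference but not its SD. With no animal named, a series and the animals recorded in it cannot be told apart.

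Oligodendrocyte reads were higher in S1 L4 than in V1 L4, as given above. Among L4 cells with no *Mbp* read, 8 in S1 and 11 in V1, the difference was -1.68 for *Cacna1g*, -2.26 for *Hcn3*, -0.62 for *Hcn2* and 1.0 for *Cacna1i*. These cells were too few to give an SD over days, and the median difference of all genes among them was 0.30. By *Pvalb*, read more often in S1 L4, *Cacna1g* had a mean of 4.02 in the 18 S1 L4 cells with a *Pvalb* read and 3.23 in the 16 without. In V1 L4 the order was the other way, 5.15 in the 10 cells with a *Pvalb* read and 5.87 in the 32 without. The part of oligodendrocyte reads and of *Pvalb* reads in the differences was not tested.

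In L5, *Cacna1g* was higher in S1 than in V1. Its mean was 4.52 in S1 and 2.31 in V1, a difference of 2.21 with an SD of 0.80 over 4 days, and the sign was the same on each day (2.14, 2.99, 1.35 and 3.01 on days 3 to 6). It was the 1 member with enough reads in this comparison, and it met the rule, as did 13.7% of 6402 genes in either direction and 9.93% that were higher in S1. A difference of one sign on each of the 4 days was seen in 15.8% of genes. The median difference of all genes was 0.24, and 96.6% of genes had a smaller absolute difference than *Cacna1g*. It met the rule under all 13 other settings tried, and at 250000 reads a cell the difference was 2.37 (SD 0.73 over days). Of these settings, keeping cells without a *Sst* read changed no L5 cell. Markers of other cell types also differed between these groups. The list of 6 microglia genes was higher in V1 L5, with a pooled level of 385 CPM against 86.9 CPM for S1 L5. Its summed level ran from 0 to 2559 CPM over V1 L5 cells, with a read in 12 of 17, and from 0 to 875 CPM over S1 L5 cells, with a read in 8 of 16 and with *P2ry12* at 0 in all of them. Oligodendrocyte genes were higher in S1 L5 (696 CPM against 218), as were the 5 astrocyte genes (64.3 CPM against 6.95). The part of these cell types in the difference of *Cacna1g* was not tested.

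The area difference of *Cacna1g* thus had opposite signs in the layers, lower in S1 in L4 and higher in S1 in L5. All 4 groups were recorded in the first series. There the mean was highest in V1 L4 (6.14), then 5.33 in S1 L4, 4.52 for L5 of S1 and 2.31 for L5 of V1. Of the 21 V1 L4 cells, however, 11 came from day 2, when no L5 cell was recorded. On day 3 V1 L4 was lowest, at 2.23 against 3.52 in V1 L5, 4.46 in S1 L4 and 5.66 in S1 L5. On day 5 V1 L4 was highest, at 6.85 against 1.96, 5.73 and 3.30. These means thus do not settle which group stood apart. The difference between the layers in the area difference of *Cacna1g* was not tested. In V1, L5 minus L4 was -3.83 for *Cacna1g*, with an SD of 4.37 over only 2 days that went opposite ways, 1.29 on day 3 and -4.90 on day 5. At 250000 reads a cell this difference was -3.68 with an SD of 3.45 and so met the rule. On day 3 the V1 L4 group held 2 cells, with a mean of 2.23, while the 11 V1 L4 cells of day 2 had a mean of 6.56.

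*Hcn3* had layer differences of opposite sign in the areas, lower in L5 in V1 and higher in L5 in S1, and the difference between these was not tested. In V1 its mean was 1.51 in L5 and 2.80 in L4 of the first series, a difference of -1.29 (SD 0.72 over 2 days, lower in L5 on both), which met the rule beside 19.4% of 6696 genes in either direction and 8.2% lower in L5. On these days, 3 and 5, V1 L4 held 2 and 3 cells, with a *Hcn3* read in 1 cell on each day. The same sign on both days was seen in 50.7% of genes, and without either of the days no spread over days can be given. In S1 its mean was 3.54 in L5 and 1.29 in L4, a difference of 2.26 that was positive on 3 of 3 days, as for 27.7% of genes, but smaller than its SD of 2.92; a difference of at least 1 was seen in 33.1% of genes. Without day 3 it was 3.04 (SD 0.11) and without day 6 2.99 (SD 2.92), both of which met the rule. Here *Hcn3* had too few reads to pass, and the rule was met by 14.6% of 6492 genes. In L5, S1 minus V1 was 2.03 for *Hcn3*, positive on 3 of 4 days, with an SD of 2.71, and without day 6 it was 2.80 with an SD of 2.40, which met the rule.

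The spread of *Hcn3* over days in L5 was wide. In S1 L5 all 5 cells of day 4 and all 5 of day 5 had a *Hcn3* read, but 1 of 3 on day 3 and 0 of 3 on day 6. In V1 L5 it was read in 3 of 3 cells of day 4, 0 of 4 of day 5, 2 of 5 of day 3 and 1 of 5 of day 6. The means of S1 L5 by day accordingly ran from 0 to 5.14. In L4 the means of *Hcn3* by day also spread widely, from 0 to 5.58 in V1 and from 0 to 5.08 in S1. The days at these ends held 1 to 3 cells of the group. On the 3 days with the most V1 L4 cells, *Hcn3* was read in 5 of 11, 5 of 12 and 6 of 9.

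For the remaining layer differences, *Cacna1g* in S1 differed by -0.81 (L5 minus L4, SD 1.96 over 3 days), *Hcn2* by -0.41 in V1 and 0.67 in S1, and *Cacna1i* by -0.33 in V1 and -0.69 in S1. The median difference of all genes was 0.15 in V1 and 0.27 in S1. None of these differences exceeded its SD over days. With all kept cells, *Hcn2* and *Cacna1i* thus did not meet the rule in any of the 4 comparisons, while *Cacna1i* met it in L4 in the second series alone and *Hcn2* met it in 3 comparisons when 1 day was left out.

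**Figure D4:**
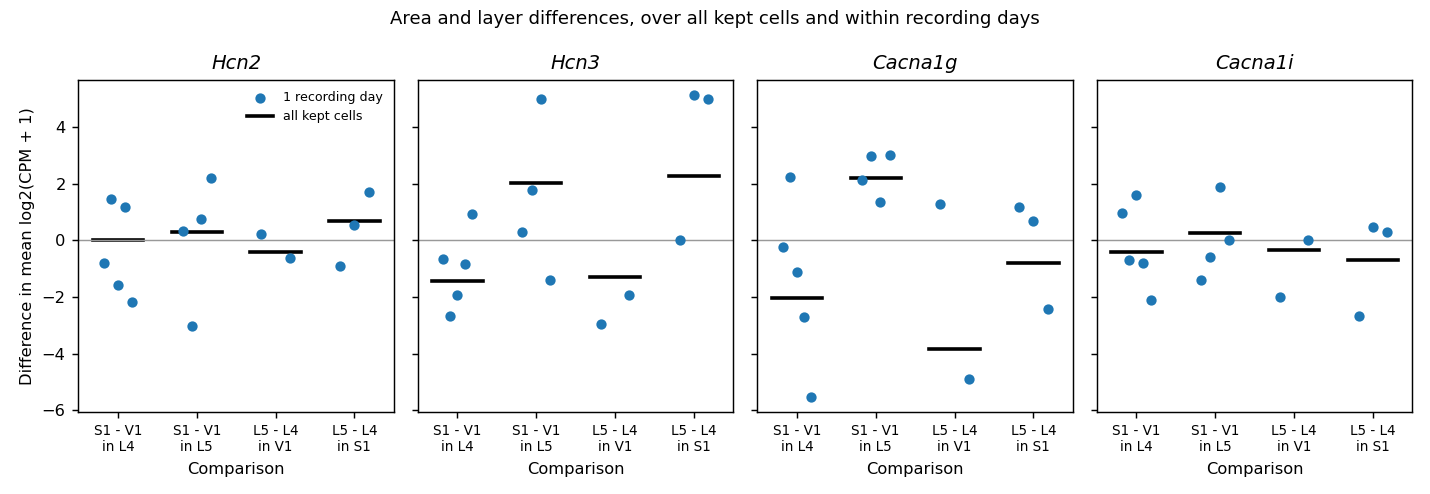
Difference in mean log2(CPM + 1) (vertical axis) for *Hcn2*, *Hcn3*, *Cacna1g* and *Cacna1i* in each of the 4 comparisons (horizontal axis); black lines are over all kept cells and blue points are single recording days with at least 2 cells of each group. The points of *Cacna1g* for S1 minus V1 in L5 lie between 1.35 and 3.01, and those in L4 between -5.51 and 2.22.

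Reads of both families were often found in the same cell. At least 1 of the 3 HCN genes and at least 1 of the 3 T-type genes were read in 53 kept cells, a T-type gene without an HCN gene in 38, an HCN gene without a T-type gene in 14, and neither in 4. A cell held reads of 0 to 5 members, with a median of 2. *Hcn3* and *Cacna1g*, the leading genes of each family, were read together in 36 cells, where the product of their shares gives 35.4. *Hcn2* and *Hcn3* were together in 18 cells (16.4 from the product) and *Cacna1g* and *Cacna1i* in 27 (26.3). Across all kept cells of the 4 groups (42, 34, 17 and 16) the Pearson correlations of log2(CPM + 1) between the 4 more often read members lay between -0.13 and 0.04. These are descriptions over cells that share days and differ in depth.

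V1 L4 cells with and without a read of *Hpse* differed in *Cacna1i*. *Hpse*, the gene of heparanase, gives its name to a SOM+ transcriptomic type. *Cacna1i* was read in 14 of 22 V1 L4 cells with a *Hpse* read (63.6%, 40.7 to 82.8) and in 2 of 20 without (10%, 1.23 to 31.7), and its mean log2(CPM + 1) was 3.42 (SD 3.0) and 0.41 (SD 1.48). In the first series the counts were 5 of 9 (interval 21.2 to 86.3%) and 0 of 12 (0 to 26.5%). In the second they were 9 of 13 (38.6 to 90.9%) and 2 of 8 (3.19 to 65.1%). Within each series the intervals thus overlapped. At 250000 reads a cell the counts were 12 of 20 and 3 of 22 over both series. On each of the 5 days with cells of both kinds, *Cacna1i* had the higher mean in the cells with *Hpse*. Days 1 and 3 each held only 1 cell without *Hpse*, and day 3 only 1 cell with it. The share of all genes that differ as much in this split was not counted. Median depth was lower in the cells with *Hpse*, 972449 reads against 1122904. This split was picked after its values were seen, out of 24 (the 6 members by *Hpse* and by *Calb2*, in V1 L4 and S1 L4), and was not tested.

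The other members showed no such split in V1 L4. *Cacna1g* was read in 20 of 22 cells with *Hpse* and 19 of 20 without, *Hcn2* in 8 and 6, and *Hcn3* in 9 and 12. In S1 L4, *Cacna1i* was read in 10 of 23 cells with *Hpse* (43.5%, 23.2 to 65.5) and 3 of 11 without (27.3%, 6.02 to 61.0), with means of 1.65 and 1.46. By *Calb2*, the gene of calretinin, *Cacna1i* was read in 5 of 20 V1 L4 cells with and 11 of 22 without, and *Cacna1g* in 19 of 20 and 20 of 22.

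**Figure D5:**
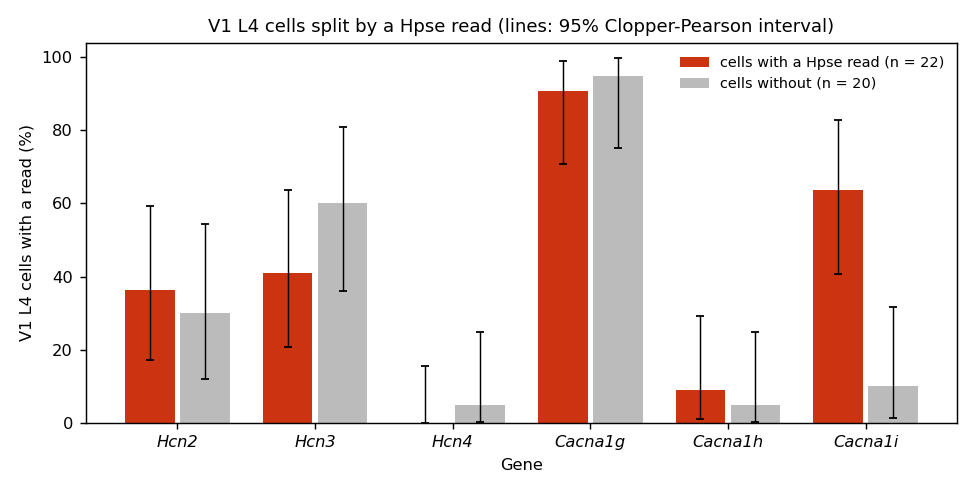
Share of V1 L4 cells with a read (vertical axis, percent) of each channel gene (horizontal axis), for the 22 cells with a *Hpse* read (red) and the 20 without (gray); black lines are 95% Clopper-Pearson intervals. The intervals for *Cacna1i*, 40.7 to 82.8% and 1.23 to 31.7%, do not overlap, and those of each other member do. They cover counting error over cells only. Within each recording series alone the *Cacna1i* intervals overlapped. The split was picked after its values were seen, and the share of all genes that separate as far in it was not counted.

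Genes whose level followed that of a member across cells were ranked by Pearson's r of log2(CPM + 1) over all kept cells, among the 9993 genes with enough reads. Nearest to *Cacna1g* were *Rbm26*, which encodes an RNA-binding protein (r = 0.51), *Mapk8ip1*, a scaffold of the JNK kinase pathway (0.45), and *Bod1l* (0.42). With each area and layer centered on its own mean the values were 0.45, 0.42 and 0.39. Nearest to *Hcn3* were *Dchs1*, a large cadherin, at 0.40, *Slc26a2*, a sulfate transporter, at 0.36 and *Eif3d*, a translation initiation factor subunit, at 0.34. For *Hcn2* these were *Shc2* (0.38), *Ccm2* (0.37) and *Tmed7* (0.36), and for *Cacna1i* they were *Frmd6* (0.39), *Col11a1* (0.39) and *Pdyn*, the gene of the opioid precursor prodynorphin (0.38). The correlations carry differences in depth and day between cells and describe weak resemblance.

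Partners of the channels were read from 4 lists of 27 genes. Of 6 HCN partners, *Pex5l*, which encodes the HCN trafficking subunit TRIP8b that also weakens the effect of cyclic AMP, was read in 44 kept cells, and *Kctd3*, whose protein binds HCN3, in 63. *Kcne2* was read in 3. Of 6 T-type partners, *Usp5*, whose enzyme removes ubiquitin from Cav3.2, was read in 94 cells, *Cachd1* in 3 and *Stac* in 0, which allows a share of up to 2.75%. *Klhl1*, which raises T-type current, was read in 15 cells, 7 of them among the 16 of S1 L5. Of the SK channels, potassium channels opened by calcium entry, *Kcnn2* was read in 37 cells, *Kcnn3* in 10 and *Kcnn1* in 9.

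Of the partners with enough reads, 1 met the rule between areas in L4 and 1 in L5. Between layers it was met by 3 in V1, and in S1 by 3 that were higher and 3 that were lower in L5. Of the 27 genes, 12 were on the list of cyclic AMP supply and breakdown. In S1 against V1 L4, 21 of the 27 had enough reads, 0 were higher in S1 and 1 lower: *Pde10a*, a phosphodiesterase, differed by -1.65 (SD 1.18 over days). The median over the 27 genes was -0.22. In L5, 13 had enough reads and 1, *Pde4d*, a cyclic AMP phosphodiesterase, was higher in S1 by 2.95 (SD 1.69), with 0 lower and a median of 0.40 over the list.

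Between layers of V1, 16 had enough reads, 0 were higher in L5 and 3 were lower: *Pde1a* (-3.84, SD 0.36 over 2 days), *Pde10a* (-2.95, SD 2.42) and *Flna*, which encodes the actin crosslinker filamin A (-1.53, SD 0.51). Between layers of S1, 15 had enough reads, with 3 higher and 3 lower in L5. Those higher were the adenylyl cyclase *Adcy1* (2.12, SD 2.12), *Pde4d* (2.05, SD 1.56) and *Usp5* (1.49, SD 0.58). Those lower were *Pde1a* (-1.92, SD 1.59), *Adcy2* (-1.23, SD 1.21) and *Pde2a* (-1.01, SD 0.55). *Pde1a*, a calmodulin-dependent phosphodiesterase, was thus lower in L5 in both areas, and was lower in S1 than V1 in L4 on 5 of 5 days, with a difference of -2.18 and an SD of 2.73. The medians over the list were -0.27 in V1 and -0.18 in S1. Over all genes the rule was met by 2.04% higher and 1.86% lower in S1 L4 against V1 L4, 9.93% and 3.81% in S1 L5 against V1 L5, 11.2% and 8.2% in V1 L5 against V1 L4, and 10.4% and 4.21% in S1 L5 against S1 L4. In either direction the rule was met by 3.9%, 13.7%, 19.4% and 14.6% of all genes in these comparisons, in the same order. The partner lists were drawn up with earlier results of the same cells known.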

How the data were processed

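Patch-seq libraries of single cells were analysed, 44 from V1 L4, 39 from S1 L4, 19 from V1 L5 and 16 from S1 L5. The authors aligned the reads to the mouse genome (mm10) with STAR 2.4.2a and deposited read counts per gene, and they deposited RPKM values computed on RefSeq transcript models. Per the labels, bcl2fastq 2.20 was also used. The counts were used for all values except levels compared between genes, which used the RPKM values. The count table held 24490 entries for 23998 symbols.

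Groups were taken from the area and layer labels, and the recording day from the date in each title. Of the cells, 9 were left out: 4 with fewer than 1500 genes, 1 with more *Slc17a7* than *Gad1* plus *Gad2* reads, and 4 without a *Sst* read. Counts were scaled to CPM of the total on genes and written as log2(CPM + 1). Counts from PCR reads are not independent molecules, so intervals (95%) and the floor of 3 counts or cells cover counting error only. Doublets were not called, since each cell was taken by its own pipette. The members and partner lists were chosen with earlier results of these data known. The genes named were the 6 members, each partner gene that met the difference rule in a comparison, and the 3 genes most correlated with each member; the other partners were named to show how often they were read, and the split by *Hpse* was picked after its values were seen. One further gene of the list is not reported here. Gene positions came from GENCODE M21 on GRCm38, whose transcript models may differ from the authors'. Scripts were tested on simulated data. Values were computed in Python 3.11.15 (pandas 2.3.3 with NumPy 2.4.6, intervals with SciPy 1.17.1), and TMM scaling in R 4.3.3 with edgeR 4.0.16. Alternatives changed the scaling, pseudocount (0.1), depth, filters on cells and genes, the average, and the days, and are given in the closing section.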

Additional observations from a re-analysis of the deposited data

Results flagged for a closer look

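*Hcn3* differed between layers in opposite directions in the areas. As the mean of the differences within days, L5 minus L4 in log2(CPM + 1) was -2.43 in V1, with both of 2 days lower in L5, and 3.38 in S1, with 3 of 3 days higher in L5 (by 0.02, 5.14 and 4.99). In V1 the L4 side of the 2 days was 2 and 3 cells, with a *Hcn3* read in 1 cell on each day. The difference between the areas was not tested.

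Some cells that were left out of the comparisons had more than 3 reads of a channel gene. Among S1 L4 cells without a *Sst* read, the cell of day 2 had *Hcn3* at 24.2 CPM (27 reads) and *Cacna1g* at 88.9 CPM (99 reads), that of day 3 had *Cacna1i* at 117.8 CPM, and that of day 4 had *Hcn3* at 58.1 CPM. The cell with more *Slc17a7* than *Gad1* and *Gad2* reads, of V1 L5 on day 5, had *Cacna1g* at 211 CPM and 0 reads of the other members.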

How the results depend on the processing

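Of 454 values obtained under other settings, 416 stayed within the spread allowed for them, 38 moved beyond it and 0 of the differences that met the rule changed sign. *Cacna1g* in L5 (S1 minus V1, 2.21) met the rule under all 13 settings, at 1.15 on the RPKM scale, 3.25 with a pseudocount of 0.1 and 4.26 as a median over cells. Differences of medians were set against the SD over days of differences in means. Keeping cells without a *Sst* read added cells to S1 L4 only. For the areas in L5 and the layers of V1 that setting repeated the main values, which are counted as unchanged. *Hcn3* in L4 (-1.45) met it under 13 of 21 and kept its sign, and its layer difference in V1 (-1.29) under 12 of 15, at 0 as a median and -2.43 as the mean within days. Leaving out single days gave -1.01 to 0.021 for *Hcn2* between layers of V1, with the lowest value without day 2 and above its SD over days. *Hcn2* was likewise above its SD at 1.18 in L5 without day 4 and at 1.38 between layers of S1 without day 3. *Cacna1i* in L4 met the rule under 1 of 21 settings, the second series alone (-1.42), and *Cacna1g* in L4 under 2, the second series alone (-3.09) and without day 3 (-2.39).

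At 250000 reads a cell, fewer genes had enough reads and fewer met the rule. For the areas in L4 it was met by 211 of 4797 genes, against 359 of 9201 in the main setting. For the areas in L5 the numbers were 312 of 2203 against 880 of 6402. They were 739 of 2633 against 1299 of 6696 for the layers of V1, and 362 of 2283 against 950 of 6492 for the layers of S1. The share of genes that met the rule was thus not lower in any comparison. With medians over cells, still set against the SD over days of differences in means, the numbers were 1463, 1794, 2205 and 1937. As means within days they were 780 for the areas in L4 and 2192 for the layers of V1. For the areas in L4 it was 780 of 6760 genes in the first series alone and 1316 of 7337 in the second. When single days were left out the number was 377 to 564, with 564 without day 5 and 548 without day 8.

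With 32 counts required, the share of cells was 19% for *Hcn2* in V1 L4, 14.7% in S1 L4 and 12.5% in S1 L5, 37.5% for *Hcn3* in S1 L5, 76.2% for *Cacna1g* in V1 L4 and 20.6% for *Cacna1i* in S1 L4. It was 0 for *Hcn4* in V1 L4 (also with 5 counts), S1 L4 and S1 L5, and 0 for *Cacna1h* in V1 L4 and S1 L4. In cells with no *Mbp* read the share was 12.5% for *Hcn3* in S1 L4, and 0 for *Hcn4* in V1 L4 and S1 L4 and for *Cacna1h* in S1 L4. Counts pooled per length put *Hcn3* at place 1 and *Cacna1g* at place 2. Median RPKM was 0 for all members but *Cacna1g* and gave no order, and L5 had too few cells without *Mbp* for that setting.

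Depth limits what the low members show: 3 counts equal 30.6 CPM in the shallowest kept cell and 0.910 in the deepest. Differences rest on cells of a few days, and L5 was compared with L4 over at most 3 days. No paired test was made, because no result comes from a test. Differences were taken over all kept cells, also of days that held only some of the groups. Those within recording days, which pair the groups by date, gave the SD and the signs.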
